A study of Mus musculus with 32 samples.

Results

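Sites that took up trimethylation of histone H3 lysine 9 (H3K9me3) by embryonic day E16.5 without having had it at E13.5, and carried it through birth (P0) to postnatal day 3 (P3), were followed in male mouse germ cells. The autosomes were divided into 1 kb bins counted from position 0, and a bin was called in a peak list when at least 50% of it lay in peaks. A site belonged to the set when it was called in neither E13.5 list and in all 6 lists of E16.5, P0 and P3. Of 2460001 autosomal bins, 45060 met this rule (1.83%), which amounted to 45.06 Mb and to 9.12% of the 494208 bins called in at least 1 list. The sites were selected on the peak calls of all 8 lists, so their presence in these lists is a description and carries no test.

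Values of a stage are given for het first and KO second where only the stage is named. The germ cells were isolated from testes of mice with the Mvh-Venus transgene, a fluorescent reporter named after Mvh (Ddx4), a gene of germ cells. At each stage, animals with 1 disrupted copy of Morc1 (Morc1 (+/-), het) were compared with knockouts (Morc1 (-/-), KO), and no animals with both copies intact were among the samples. The reporter was thus shared by all groups. The labels list 2 H3K9me3 samples per genotype and stage, and each group was represented by 1 deposited peak list with no peak heights. There was therefore no replicate error. Read depth is unknown, so a gain of the mark and a more sensitive call at E16.5 cannot be told apart. Peak lists hold no expression, and the identity of the cells was not checked against marker genes.

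H3K9me3 is the defining mark of constitutive heterochromatin. It is written by enzymes such as SETDB1 and the SUV39H proteins, and it is read by HP1 proteins, which compact the chromatin. Male germ cells have lost most of their inherited DNA methylation by the start of the period studied. They then stop dividing and gain a new pattern of it. In that window H3K9me3 is one of the marks that hold transposons and lineage-specific gene clusters silent. MORC1 is a nuclear ATPase of germ cells that is needed for transposon silencing.

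Few of the gained and kept sites lay at gene starts. Of 16457 autosomal protein-coding genes with an entry in the RefSeq promoter table, 79 had an annotated start in such a bin (0.480%), against 318 with a start in a bin called in all 8 lists (1.93%). Bins of the latter kind numbered 98218 (3.99% of autosomal bins). Among the 79 were 27 of 938 olfactory receptor genes, 6 of 322 vomeronasal receptor genes, 3 of 142 genes of immune receptor clusters and 3 of 129 genes of xenobiotic enzyme families. No gene of the zinc finger (327 genes with an entry), synaptic adhesion (127), ion channel (210), germline (33), imprinted (27) or developmental transcription factor (130) lists had a start there. Lists of these sizes are too small for 0 to be told apart from the 0.480% of all genes. The promoters of the 79 genes, taken around the annotated start, held few CG dinucleotides, the substrate of DNA methylation in mammals. The median was 1 CG and 38.0% G and C in the 300 bases from 250 before to 50 after the start, against 14 CG and 56.7% over the 16452 genes whose start lay in the binned range. The medians were 1 CG and 37.2% for the starts in bins called in all 8 lists, so this low content was shared with the sites marked throughout. Olfactory receptor bodies had a median length of only 0.95 kb, and some of their annotated starts may be those of the coding sequence. For such genes the 300 bases may not hold the promoter.

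Of the 79 promoters, 56 held at most 2 CG (70.9%), against 18.6% of all promoters. The letters TATAAA, searched on both strands, were found in 25 of the 79 (31.6%), in 42.1% of the promoters called in all 8 lists and in 13.53% of all promoters. The E-box CACGTG was found in 0 of the 79, in 0.629% of the promoters called in all 8 lists and in 7.96% of all promoters. For TGCGCA the values were 1 of the 79, 0% and 10.1%. These matches are descriptions of sequence, and AT-rich promoters hold TATAAA more readily than others. CACGTG and TGCGCA each contain a CG, so promoters with few CG hold them less readily.

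The promoters below are from the RefSeq table of GRCm38.p6, written 5′ to 3′ on the strand of the gene, with every CG in capitals. They were chosen to show the range of genes whose start was reached. In Olfr790 the last 50 bases begin with atg, so its listed start may be that of the coding sequence. Olfr790 (chr10:129500636-129500935, plus strand) lies in an 11 kb run of sites, and Vmn2r18 (chr5:151586875-151587174, minus strand) in a run of 5 kb. Klrb1a (chr6:128622885-128623184, minus strand) encodes a lectin-like receptor of natural killer cells, and Lalba (chr15:98482634-98482933, minus strand) the milk protein alpha-lactalbumin. S100a8 (chr3:90668821-90669120, plus strand) encodes a calcium-binding protein of neutrophils. Morc2b (chr17:33148700-33148999, minus strand), of the Morc family, had 1 listed start in a single 1 kb site.
Olfr790: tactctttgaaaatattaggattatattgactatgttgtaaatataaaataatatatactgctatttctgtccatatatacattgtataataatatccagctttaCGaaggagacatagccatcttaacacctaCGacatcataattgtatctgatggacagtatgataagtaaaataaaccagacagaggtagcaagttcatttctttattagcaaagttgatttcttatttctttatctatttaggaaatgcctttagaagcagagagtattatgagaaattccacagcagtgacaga
Vmn2r18: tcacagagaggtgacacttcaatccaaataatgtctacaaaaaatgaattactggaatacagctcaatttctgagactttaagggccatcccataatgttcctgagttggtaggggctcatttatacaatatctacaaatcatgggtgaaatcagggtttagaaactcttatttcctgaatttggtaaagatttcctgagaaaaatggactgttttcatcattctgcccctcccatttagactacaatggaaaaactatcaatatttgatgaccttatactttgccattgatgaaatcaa
Klrb1a: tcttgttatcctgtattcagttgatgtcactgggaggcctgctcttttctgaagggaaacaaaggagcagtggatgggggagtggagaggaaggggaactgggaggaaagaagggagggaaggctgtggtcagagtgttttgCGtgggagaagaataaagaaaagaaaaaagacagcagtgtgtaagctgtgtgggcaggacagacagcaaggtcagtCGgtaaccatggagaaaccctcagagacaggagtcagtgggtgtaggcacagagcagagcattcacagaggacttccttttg
Lalba: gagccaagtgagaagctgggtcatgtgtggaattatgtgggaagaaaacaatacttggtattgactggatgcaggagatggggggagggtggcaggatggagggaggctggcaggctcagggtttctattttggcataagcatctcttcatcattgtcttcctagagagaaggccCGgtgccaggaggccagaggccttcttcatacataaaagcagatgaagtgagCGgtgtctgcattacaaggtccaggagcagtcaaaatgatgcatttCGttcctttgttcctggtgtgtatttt
S100a8: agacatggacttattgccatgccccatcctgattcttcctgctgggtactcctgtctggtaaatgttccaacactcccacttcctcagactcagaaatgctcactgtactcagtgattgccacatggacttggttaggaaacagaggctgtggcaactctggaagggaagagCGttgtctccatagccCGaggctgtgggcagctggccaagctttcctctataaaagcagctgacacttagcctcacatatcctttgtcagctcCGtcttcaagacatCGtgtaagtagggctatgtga
Morc2b: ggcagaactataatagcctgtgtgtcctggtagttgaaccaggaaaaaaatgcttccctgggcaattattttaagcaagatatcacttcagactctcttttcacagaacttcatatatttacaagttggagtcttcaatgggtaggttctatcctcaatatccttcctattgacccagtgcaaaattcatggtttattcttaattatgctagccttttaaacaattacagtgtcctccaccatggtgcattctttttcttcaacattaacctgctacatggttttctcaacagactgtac
Olfr790 and Klrb1a held 2 CG each, Lalba 3 and S100a8 4. Vmn2r18 and Morc2b held none. G and C made up 29.7% of the Olfr790 promoter and 50.3% of that of Klrb1a, the extremes of these 6.

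The runs were short, and whether they touched older H3K9me3 depended on how E13.5 was read. Adjacent bins formed 27880 runs, of which 17256 (61.9%) were 1 kb and 6778 (24.3%) were 2 kb long. Runs of 3 kb or more numbered 3846 and held 31.6% of the sites, 15 runs reached 10 kb, and the longest spanned 13 kb. A bin called in an E13.5 list touched 17552 runs (63.0% of all runs), and 18614 of the 45060 sites were themselves next to such a bin. In 1303 runs (4.67% of all runs) there was such a bin on both sides, so that the new run filled a gap, and in 16249 (58.3% of all runs) on 1 side. The gap-filling runs had a mean length of 2.69 kb, against 1.54 kb for runs at 1 edge and 1.60 kb for the 10328 runs (37.0%) that touched no E13.5 bin. Of all runs, 5543 (19.9%) had no E13.5 bin within 10 kb and 1020 (3.66%) had none within 50 kb. When only bins with 0 bp of E13.5 peak were admitted, 33.4% of the runs touched an E13.5 bin.

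**Figure D1:**
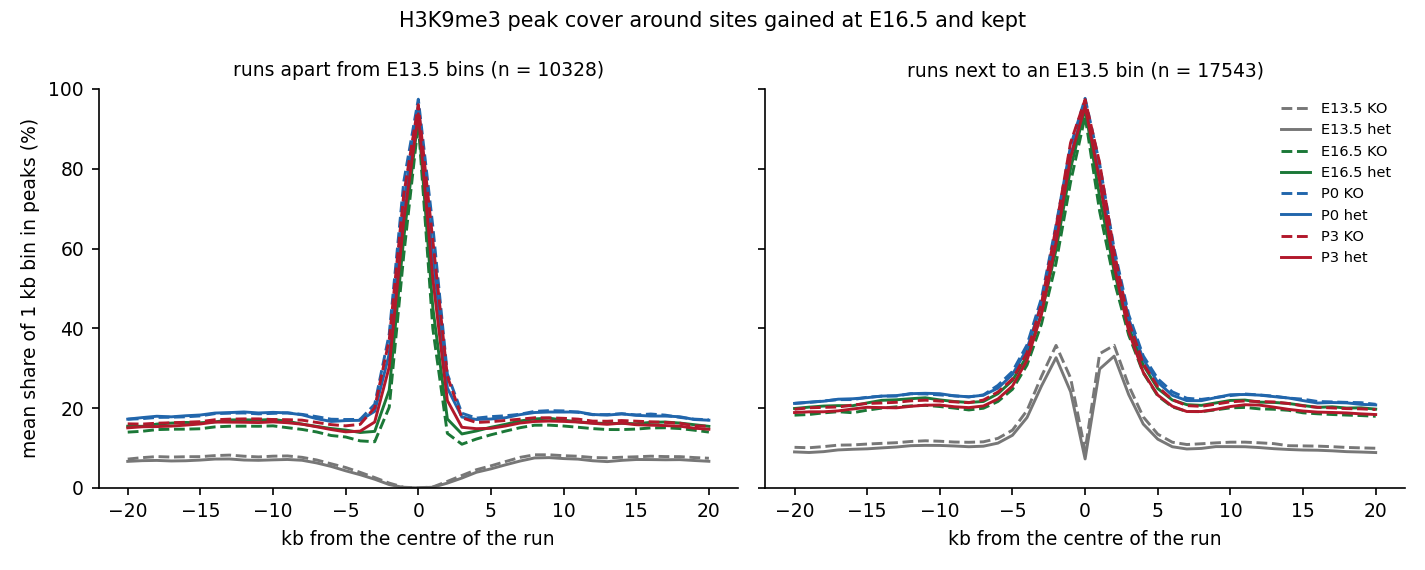
Mean share of each 1 kb bin that lay in peaks (y axis, percent) against the distance from the centre of a run in kb (x axis), for 10328 runs apart from E13.5 bins (left) and 17543 runs next to one and at least 20 kb from the ends of the binned range (right); colours are stages, solid lines het and broken lines KO. On the left the E13.5 lines are 0 at the centre, and on the right the E13.5 lines peak on both sides of a dip at the centre.

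The plot of cover around the runs shows both forms. The centre of a run with an even number of bins was placed in the bin to its right, so the lines are not symmetric, and the values here are 2 kb to the right. Around runs next to an E13.5 bin, E13.5 peaks covered on average 33.0% of the bin in het and 35.7% in KO, and E16.5 peaks 54.2% and 51.9%. Around the separate runs, E13.5 peaks covered 1.18% in het and 1.62% in KO. E16.5 peaks covered 17.3% and 13.7% there, P0 peaks 25.03% and 28.5%, and P3 peaks 21.9% and 28.0%. The low E13.5 values follow from how the separate runs were chosen. These runs formed narrow islands, and cover beside them was higher in the 4 postnatal lists than in both E16.5 lists.

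Whole peaks were compared in the same way. Of the 25124 E16.5 het peaks that held a site, 9312 (37.1%) overlapped no E13.5 peak of either genotype and 2058 (8.19%) overlapped at least 2. In E16.5 KO the shares were 37.5% and 7.41%. Over all autosomal peaks, 38.2% of the E16.5 het list and 34.7% of the E16.5 KO list overlapped no E13.5 peak. At E16.5 the peaks that held a site were thus near the level of their lists. After birth they lay below it. The shares were 36.0 and 35.9% against 47.1 and 50.9% of all peaks at P0, and 37.5 and 37.2% against 45.1 and 49.0% at P3. Peaks that held a site were longer than their lists. Their median length at E16.5 was 3576 bp (het) and 3329 bp (KO). After birth it was 4087 and 4309 bp (P0) and 3867 and 4231 bp (P3), against medians between 2346 and 2575 bp for all autosomal peaks of these 6 lists. A longer peak covers more bins, so it is also more likely to hold a site.

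Within the sites, cover was close to complete after E13.5. Mean cover at E16.5 was 95.1% (het) and 93.5% (KO). It was 96.7 and 97.9% in the lists of P0, and 95.6 and 97.2% in those of P3. Before the gain, at E13.5, it had been 3.93 and 4.99%. The rule asks for at least 50% in every later list and less than 50% at E13.5, so this contrast follows in part from it. Both E13.5 lists were at 0 bp in 33605 sites (74.6%), and 24274 sites (53.9%) were covered from end to end in all 6 later lists. Near the limits of the rule, 2437 sites had a least covered later list of 50 to 55% and 2664 bins missed the rule with 45 to 50%. At E13.5, 1386 sites had a better covered list of 45 to 50%, and 1615 bins missed with 50 to 55%.

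To ask how durable the E16.5 gain was, all bins called in both E16.5 lists and in neither E13.5 list were followed after birth. The postnatal lists had no part in choosing them. There were 90717 such bins (3.69% of autosomal bins), and 45060 of them, 49.7% (95% Wilson interval 49.3 to 49.996%), were called in all 4 postnatal lists. Over the 19 autosomes this share ranged from 44.2% on chromosome 16 to 59.0% on chromosomes 11, 13 and 18. Bins called in both lists at E13.5 and both at E16.5 were kept more often, in 98218 of 126535 cases (77.6%, 77.4 to 77.9%). The difference was 28.0 percentage points (95% Newcombe interval 27.6 to 28.3) and had this direction on 19 of 19 autosomes. The bins of both stages had to be called in every embryonic list, the gained bins only in those of E16.5. The sets were not matched for cover at E16.5. These intervals cover counting error only and are too narrow, because neighbouring bins are not independent.

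**Figure D2:**
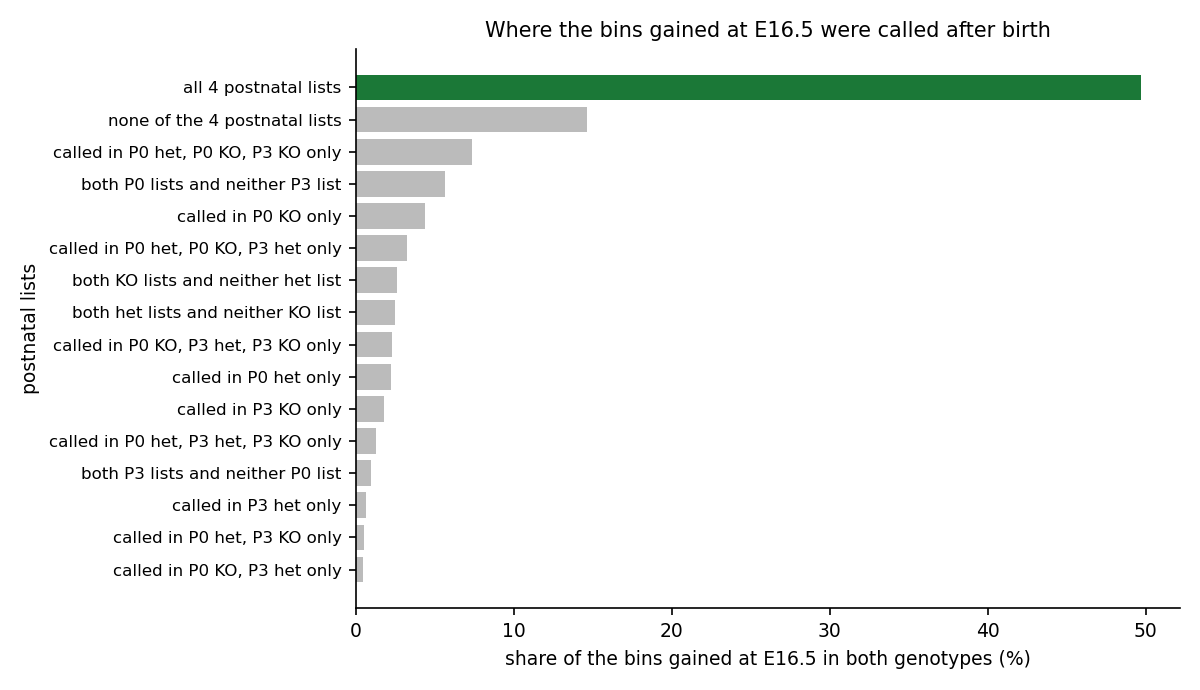
Bars give the share of the 90717 bins gained at E16.5 (x axis, percent) that had each pattern of calls in the 4 postnatal lists (y axis). The pattern called in all 4 lists holds 49.7% and the pattern called in none 14.6%.

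Of the other gained bins, 13251 (14.6%) were called in none of the postnatal lists, which is 0.539% of autosomal bins. A further 5117 (5.64%) were called in both P0 lists and neither P3 list, and 870 (0.959%) in both P3 lists and neither P0 list, so a call at P0 that was gone at P3 was the more common of these patterns. The KO lists retained slightly more of the gained bins than the het lists. At P0, 72.3% were called in het and 75.5% in KO, and at P3, 60.9% and 66.4%. The KO lists also called more bins in all at both stages, 13.2% of autosomal bins against 12.6% at P0 and 12.3% against 11.3% at P3. Bins called in both lists of 1 genotype and neither of the other were nearly balanced, at 2255 for het and 2351 for KO. Patterns that differed in a single list were not. All lists but P3 het called 6666 bins and all but P3 KO 2902, while P0 KO alone called 3984 and P0 het alone 2013.

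Retention differed with the surroundings of the gained bin. Next to a bin called at E13.5, 57.3% (56.7 to 57.8%) of 32502 gained bins were kept. The share was 53.4% at 2 kb, 44.6% at 3 to 5 kb, 40.8% at 6 to 10 kb, 43.2% at 11 to 50 kb and 45.6% (44.0 to 47.2%) of 3565 bins at over 50 kb. Bins at the edge of older marking exceeded those more than 10 kb away by 13.7 points (12.8 to 14.5), with this direction on 19 of 19 autosomes. The difference was 16.1 points (14.8 to 17.5) among gained runs of 1 kb alone. Gained bins with some E13.5 peak, under 50% of the bin, were kept in 56.9% of cases. Those with 0 bp in both E13.5 lists were kept in 47.6%, a difference of 9.35 points with this direction on 19 of 19 autosomes. Bins at the edge can have such partial cover, and its part in the 13.7 points is not given here. Bins covered from end to end in both E16.5 lists were kept in 56.7% of cases and partly covered bins in 39.9%, a difference of 16.8 points (16.2 to 17.5).

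**Figure D3:**
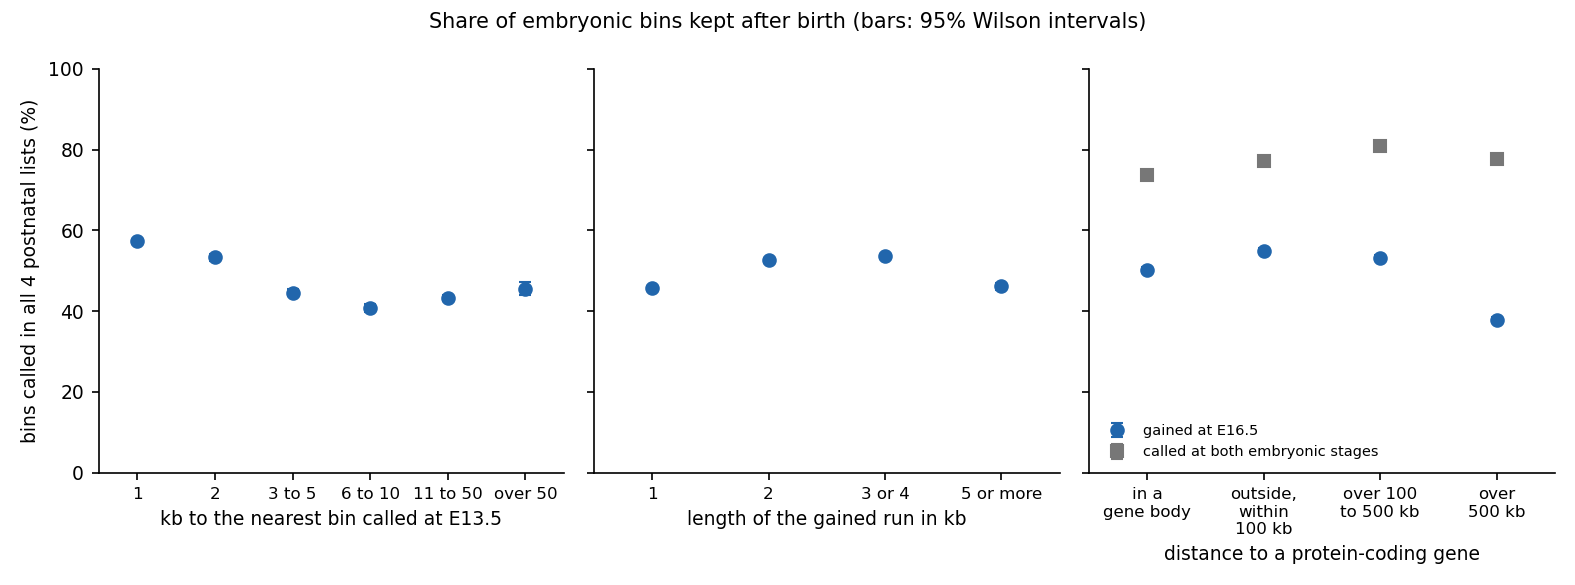
Share of bins called in all 4 postnatal lists (y axis, percent) by distance to E13.5 marking, by length of the gained run and by distance to a protein-coding gene (x axes), with 95% Wilson intervals. Circles are bins gained at E16.5 and squares, in the right panel alone, bins called at both embryonic stages; circles fall to 37.8% at over 500 kb from a gene, where the squares stay at 77.7%.

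The length of the gained run made little difference between its extremes. Runs of 1 kb were kept in 45.7% of bins and runs of 5 kb or more in 46.1%, a difference of 0.425 points (-0.586 to 1.44). Runs of 2 kb and of 3 or 4 kb lay higher, at 52.6% and 53.6%. Retention was lower far from genes. Gained bins outside genes were kept in 54.9% of cases within 100 kb, in 53.3% at 100 to 500 kb and in 37.8% at more than 500 kb. The first and the last differed by 17.1 points (16.2 to 18.0), with this direction on 18 of 19 autosomes, all but chromosome 11. Bins marked at both embryonic stages were kept in 77.1%, 81.0% and 77.7% of cases at these 3 distances. Within gene bodies 50.1% of the gained bins were kept.

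The result was then read in the genotype that did not choose the bins. The gained and kept pattern held in the het lists alone in 73970 bins (3.01%), of which 45060 (60.9%, 60.6 to 61.3%) had it in the KO lists too, with a range of 57.3 to 65.0% over the autosomes. Of the other bins, 0.967% had the pattern in KO. Of the 68143 bins chosen in KO alone (2.77%), 66.1% (65.8 to 66.5%) had the pattern in het, against 1.21% of the other bins. Only 494208 of the 2460001 autosomal bins were called in any list, so most of the other bins could not have the pattern. Their low shares follow from this and are no measure of how well the genotypes match. Bins whose pattern was not shared differed at E13.5 as well as later. Of the het-chosen bins, 18.3% were already called in KO at E13.5, while the KO calls of E16.5 reached 86.9% of them, those of P0 91.7% and those of P3 88.1%. Of the KO-chosen bins, 10.8% were already called in het at E13.5, and 92.9%, 91.5% and 83.6% were called in het at the later stages.

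All autosomes held such sites, from 1.20% of bins on chromosome 19 to 2.20% on chromosome 1. Bins called in all 8 lists made up from 2.28% on chromosome 11 to 5.17% on chromosome 1. Chromosome 7 had a high share of the latter, 5.13%, with a low share of the gained and kept sites, 1.28%. Of 2450 whole megabases, 119 held no site, the median was 14 sites, and 146 held at least 50.

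**Figure D4:**
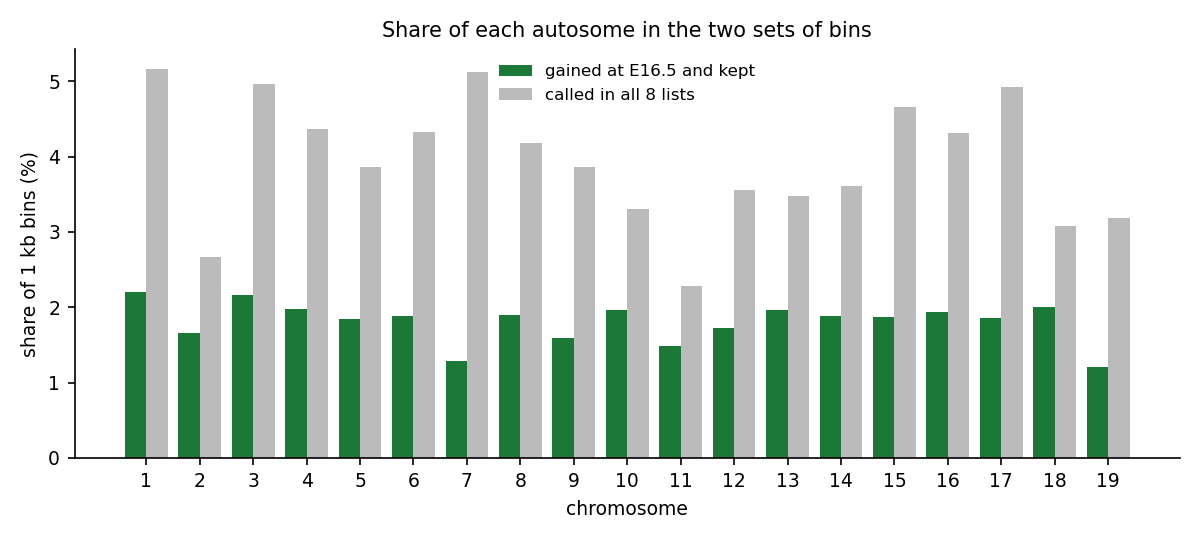
Share of 1 kb bins (y axis, percent) on each autosome (x axis) that were gained at E16.5 and kept (dark bars) or called in all 8 lists (light bars). The dark bars lie between 1.20% and 2.20%, and chromosome 7 combines a dark bar of 1.28% with a light bar of 5.13%.

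The sites lay in gene bodies less often than other bins. The midpoint lay in a protein-coding gene body for 8842 sites (19.6%, 19.3 to 19.99%), against 40.4% of all other autosomal bins, a difference of -20.8 points (-21.1 to -20.4) with the same sign on 19 of 19 autosomes. Bins called in all 8 lists were genic in 16.4% of cases, 3.24 points (2.81 to 3.68) fewer than the gained and kept sites, on 16 of 19 autosomes. Bins gained and then lost by birth were genic in 18.97% of cases, a difference of 0.651 points (-0.118 to 1.41) that had this direction on 8 of 19 autosomes. Of the sites, 17.1% lay more than 500 kb from a protein-coding gene, against 22.3% of the bins called in all 8 lists, 35.2% of those lost by birth and 9.79% of all bins.

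Of 20665 autosomal protein-coding genes, 2485 (12.0%) carried at least 1 site by its midpoint. The share rose with gene length, from 1.68% of genes under 10 kb and 9.98% of genes of 10 to 100 kb to 50.4% of genes of 100 to 500 kb and 206 of 216 genes (95.4%) of 500 kb or more. Per Mb of gene body there were 5.19, 5.26, 9.33 and 16.01 sites in these classes. The genes with the most sites were very long, and several of them act in neurons. Nkain2, which encodes a protein that interacts with the sodium pump, had 64 sites in its introns and exons together, Gpc5 (the heparan sulfate proteoglycan glypican 5) 52, and Cntnap2 (an axonal adhesion protein) 50. Iqcm had 48, Sgcz (a sarcoglycan) 47, Sntg1 45, Macrod2 44 and Lsamp, a neuronal adhesion gene, 41. Peaks covered 52.1 and 58.6 kb of Nkain2 at E13.5. The E16.5 pair was 173.5 and 147.5 kb, the P0 pair 210.9 and 215.6 kb and the P3 pair 186.4 and 181.5 kb. Both P0 values exceeded those of every other stage. The P0 lists also called the most autosomal bins, 12.6% in het and 13.2% in KO. Nkain2 was ranked by its sites, so its rise after E13.5 follows in part from the rule.

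Gene groups were described by the number of genes with a site and by sites per Mb of gene body, since long genes have more chances. Sites per Mb also rose with gene length, from 5.19 in genes under 10 kb to 16.01 in those of 500 kb or more. This measure therefore does not remove the effect of length, and the groups were not matched for it. Over all genes there were 8.88 sites per Mb. Of 223 synaptic adhesion and axon guidance genes, 74 (33.2%) carried a site, with 13.4 per Mb. Cntnap2, Lsamp, Cntnap5c with 40 and Cntn5 with 37 led them. Of 281 ion channels and neurotransmitter receptors, 86 (30.6%) did, with 14.4 per Mb. Gabrg3, a GABA receptor subunit gene, had 34 sites. The called length of Gabrg3 was 43.2 and 48.7 kb at E13.5. It measured 108.2 and 103.7 kb in the E16.5 lists, 141.5 and 156.5 kb in those of P0, and 121.5 and 153.3 kb in those of P3. Gabrg3 too was named for its number of sites, so this rise follows in part from the rule.

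Clustered families of sensory, defence and detoxifying genes are short, and their counts were small. A site lay in 59 of 1104 olfactory receptor genes (5.34%, 36.3 per Mb), 28 of 354 vomeronasal receptor genes (7.91%, 19.2 per Mb), 27 of 177 genes of immune receptor clusters (15.3%, 18.1 per Mb) and 2 of 71 defensin genes (2.82%, 24.7 per Mb). Of 161 cytochrome P450, UDP glucuronosyltransferase, sulfotransferase and carboxylesterase genes, 50 did (31.1%, 21.1 per Mb), where overlapping Ugt genes count a shared bin more than once. Cyp2j12, of a P450 family that oxidizes fatty acids, had 8 sites and Sult3a1, a sulfotransferase, 7. Of 76 placental prolactin, cathepsin and Ceacam or Psg genes, 4 had a site (6.69 per Mb), with 3 sites in Psg25.

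Several other groups held fewer sites per Mb than all genes together, without matching for length. Genes of 10 to 100 kb, the class of the median Zfp body (18.0 kb), held 5.26 per Mb. Sites lay in 27 of 391 Zfp genes (6.91%, 5.62 per Mb), of which Zfp804b held 25 of the 77 sites. They also lay in 12 of 192 developmental transcription factor genes (6.25%, 3.19 per Mb), led by Sox6 with 5, and in 3 of 34 imprinted genes (2.64 per Mb), which were Slc22a2, Peg10 and Grb10. Of 43 germline and meiosis genes, 3 had 1 site each (1.39 per Mb): Asz1, Mov10l1 and Tdrd9, which act in the piRNA pathway that silences transposons. Of 31 genes of H3K9 methylation and heterochromatin, 3 had 1 site each (1.79 per Mb): Morc2b, Spocd1 and Ehmt1, the last encoding an H3K9 methyltransferase. None of 13 housekeeping genes had a site. Of 20 genes of gonad somatic cells, 3 did. Their density was above that of all genes, at 25.04 per Mb, and 14 of their 17 sites lay in Adgre1, which encodes the macrophage antigen F4/80.

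Some shorter genes were filled over much of their length. Neurod4, a proneural transcription factor gene (chr10:130268152-130280254, minus strand), had 7 sites, 57.8% of its 12.1 kb body and the highest share among bodies of at least 5 kb. At E13.5 its body carried 1.33 and 1.78 kb of peak. The E16.5 lists covered 9.53 and 9.57 kb, the P0 lists 8.51 and 9.20 kb, and the P3 lists 8.69 and 9.24 kb. Each list had a single peak there, which overlapped the E13.5 het peak at 130276003 to 130277333 and stopped short of the gene's start in all lists, by 1.25 kb in E16.5 het and by 1.59 to 2.95 kb in the others.

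Vmn2r18 (chr5:151561661-151586924, minus strand), a pheromone receptor gene, had 13 sites. Called length was 2.99 and 3.31 kb at E13.5 and between 16.98 and 19.8 kb in the 6 later lists. Klrb1a, with 6 sites, went from 3.75 and 4.38 kb to between 8.81 and 9.54 kb. In these genes the later values lay close together and well above both E13.5 values. They were ranked by their share in sites, so later values above those of E13.5 follow from the rule.

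H2-Ob (chr17:34238905-34245908, plus strand), which encodes a chain of the class II-like molecule that modulates peptide loading in B cells, had no peak at E13.5. Its peaks covered 3.83 and 3.54 kb in the E16.5 lists and 6.25 and 6.80 kb in those of P0. Both P3 lists covered the whole body of 7.004 kb. The peak itself lengthened from 3.83 kb in E16.5 het to 13.3 kb in P3 het. Prss22, a serine protease gene, and Gm3213 also had no E13.5 peak. Their later values were 4.77 to 6.50 kb and 2.56 to 2.90 kb. These 3 genes were ranked by their share in sites, so a call in both genotypes at every later stage follows from the rule.

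**Figure D5:**
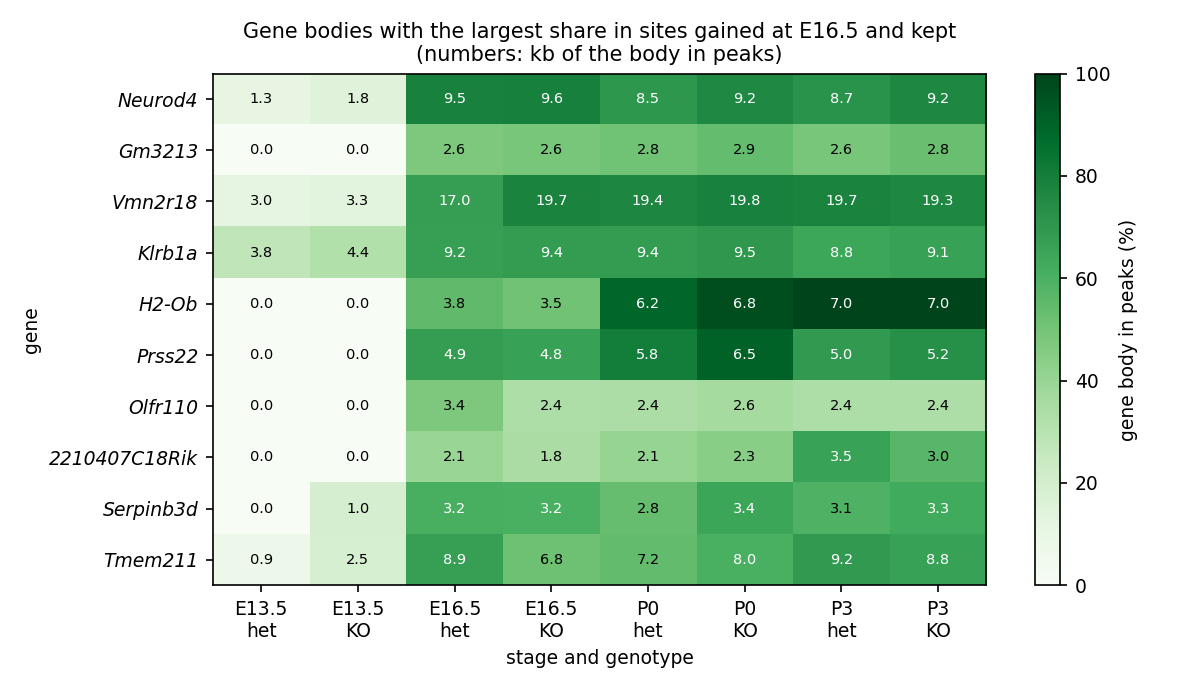
Share of the gene body in peaks (colour, percent; numbers in kb) for the 10 protein-coding genes of at least 5 kb with the largest share in gained and kept sites (y axis) in each of the 8 lists (x axis). The E13.5 columns hold 0 to 4.4 kb, and Neurod4 goes from 1.3 and 1.8 kb to between 8.5 and 9.6 kb.

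The longest runs lay mainly far from genes. On chromosome 14, a 13 kb run (chr14:85824001-85837000) lay 1286 kb from Pcdh17 and 818.4 kb from Diaph3. It held no E13.5 peak, and its nearest E13.5 bin was 6 kb away. Each later list had 1 peak there, 12.9 and 13.6 kb long at E16.5, 18.6 and 16.8 kb long at P0, and 18.2 and 15.1 kb long at P3. The left end of the peak fell between positions 85824054 and 85824279 in all 6 lists, while the right end lay at 85837199 and 85837905 at E16.5 and between 85839281 and 85842678 after birth. The other 13 kb run (chr15:29296001-29309000) lay between Dnah5 and Ctnnd2 and touched an E13.5 bin.

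A 12 kb run on chromosome 11 (chr11:92011001-92023000), between Kif2b and Car10, was an island whose nearest E13.5 bin was 18 kb away. Its peak measured between 11.5 kb (E16.5 KO) and 12.8 kb (both KO lists after birth). The left end fell between 92010157 and 92011402 and the right end between 92022934 and 92023341 in all 6 lists. The second 12 kb run (chr6:11146001-11158000) lay between Nxph1 and Ndufa4. Of the 6 runs of 11 kb, 2 held an olfactory receptor gene, Olfr1305 on chromosome 2 and Olfr790 on chromosome 10. The other 4 lay between Cobl and Pom121l12, Csmd3 and Trps1, Pudp and Prr16, and Pcdh7 and G6pd2.

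At the Olfr790 run (chr10:129493001-129504000) the called peak differed in extent between lists. No E13.5 peak overlapped the run, but a bin called at E13.5 lay next to it on 1 side. The E16.5 peak spanned 13.6 kb in het (129492625 to 129506248) and 51.0 kb in KO (129455070 to 129506092). Within the span of the KO peak, E16.5 het had further calls outside its 13.6 kb peak. They covered 0.755 kb of Olfr787 and 0.939 kb of Olfr789. Whether the KO peak joined neighbouring peaks was not tested. The P0 peaks spanned 20.7 and 21.0 kb, and the P3 peaks 24.4 and 29.0 kb. The right end was nearly constant, while the left end varied. Starts of Olfr776, Olfr787, Olfr789, Olfr798 and Olfr799 on the same chromosome also lay in gained and kept sites.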

How the data were processed

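H3K9me3 ChIP-seq was represented by 8 deposited peak lists, 1 per genotype and stage, for 16 H3K9me3 samples. Each list gives chromosome, start and end. The other 16 samples used an antibody against H3 and were not analysed here. The submitters' processing notes name bcl2fastq 2.20, cutadapt 1.18, Bowtie2 2.3.4.1, deepTools 3.5.0, HOMER 4.10 and build mm10, without roles. The caller's settings, the control used and the handling of replicates are not given in the sources used here.

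Bins ran from position 0 to the last peak of any list on each autosome. Covered shares, runs, gene positions and Wilson and Newcombe intervals were computed in Python 3.11.15 with numpy 2.4.6 and pandas 2.3.3. The bin rule was tested on simulated lists. Gene bodies and promoters came from RefSeq tables of GRCm38.p6, the assembly of mm10. Coordinates are 1-based. The base composition of the bins themselves was not analysed here. No p-value was computed, since each group had 1 list.

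The sites, gene lists and tests were chosen with earlier results of these data known. Named genes were the 15 with most sites, the 10 of at least 5 kb with the largest share, up to 15 with a start in a run, the neighbours of the 10 longest runs and up to 4 per gene list. S100a8 and Morc2b promoters, the smaller Olfr starts and the 6 loci followed by peak were picked after their values were seen. Alternatives changed the bin rule, the peaks used, the lists in the rule and the gene measure.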

Additional observations from a re-analysis of the deposited data

How the results depend on the processing

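The differences in kept share, old minus gained bins and near minus far from E13.5 bins, did not reverse direction under the alternatives run. The other results followed here are shares and counts, which have no direction to reverse. Differences by gene position, cover and run length were not rerun. The total length and number of runs stayed within 1.5 times the reported value in all alternatives. Of 145 alternatives for the main results, 76 lay within the interval of the reported value, or within 1.5 times it for counts and length. The others moved further. Leaving out 1 list at a time from the rule gave 46.2 to 56.6 Mb of sites and 28483 to 32882 runs. The share of sites in runs of 3 kb or more was then 31.9 to 36.3%, the kept share of gained bins 40.6 to 57.0%, the genic share 19.4 to 20.3% and the share of runs next to an E13.5 bin 59.6 to 63.2%. The kept difference between old and gained bins was 23.5 to 35.3 points, and that between gained bins near and far from E13.5 bins 11.3 to 17.6 points. The alternatives for these differences were chosen after seeing the data.

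In runs of 3 kb or more lay 33.9% of sites when 25% of a bin called it, 34.4% with 75%, 39.6% with the whole bin, 25.6% with 500 bp bins, 29.3% with 2 kb bins, 40.0% with the longest 50191 peaks of each list, 37.4% without the shortest peaks and 30.9% with 0 bp at E13.5. The kept share was 50.4% with 25%, 49.1% with 75%, 48.7% with the whole bin, 47.6% with equal peak numbers, 50.02% without the shortest peaks and 47.6% with 0 bp at E13.5. The genic share was 20.3%, 18.9% and 17.7% with 25%, 75% and the whole bin, 18.2% with equal peak numbers, 19.2% with 0 bp at E13.5 and 22.8% with 5 kb added to each side of genes. The share of runs next to an E13.5 bin was 62.3% with 25%, 61.0% with the whole bin, 66.5% with 500 bp bins, 53.1% with 2 kb bins, 78.9% with equal peak numbers, 60.2% without the shortest peaks and 33.4% with 0 bp at E13.5. The last follows from the rule, since a bin partly covered at E13.5 is left out.

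The old minus gained difference was 27.3 points with 75%, 26.3 with the whole bin, 27.1 with equal peak numbers and 30.02 with 0 bp at E13.5. The near minus far difference was 16.49 points with 75%, 18.1 with the whole bin, 18.3 with equal peak numbers and 14.8 without the shortest peaks. The share of KO-chosen bins with the pattern in het was 66.5% with 75% and 65.0% with equal peak numbers. Of 375 counts of sites in the 25 genes with the most sites or the largest share, 366 stayed within 1.5 times and 9 were lower.

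No paired analysis was possible because each list is 1 call set per group without a replicate number. Depth is unknown, so no detection limit can be given.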

Other observations

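The X chromosome met the same rule in 1987 of 169958 bins (1.17%), against 1.83% on the autosomes, and 1.81% of its bins were called in all 8 lists, against 3.99%. Male cells carry 1 X chromosome, and whether this bears on the lower shares was not tested.

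The megabase with the most sites was chr11:13000001-14000000, with 115 of its 161 gained bins kept and no protein-coding gene. It was followed by chr13:87000001-88000000 with 103 sites, also without a gene, and by chr8:74000001-75000000 with 99, which holds Isx and Hmgxb4. Among the 10 densest was chr13:4000001-5000000, where 84 of 112 gained bins were kept. It holds 9 protein-coding genes, all aldo-keto reductases, a family that reduces steroids and other carbonyl compounds. Akr1c6 in that window had a start in a 7 kb run, and its body held 5.84 kb (het) and 7.15 kb (KO) of E13.5 peak and between 12.2 kb (P3 het) and 17.1 kb (P0 KO) of later peaks. These windows were chosen after their values were seen.

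Of 919 autosomal miRNA hairpins in the RefSeq table, 7 had their midpoint in a site, a lower share than the 1.83% of all autosomal bins. They were Mir7665, Mir879, Mir703, Mir7035, Mir1899, Mir6237 and Gm51288. Mir6237 lies in Cntn5, one of the genes with the most sites.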
